A study of Mus musculus with 6 samples.

Results

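All tumors driven by stabilised β-catenin were compared as a single group with normal mouse prostate, to see which transcripts they shared whatever the length of the glutamine tract that separates them. The tumor group held the 4 libraries titled 12Q-Bcat and 48Q-Bcat and the normal group the 2 titled WT-control, which together are all 6 libraries of the series. All 24091 genes of the deposited count table entered the comparison, and 15050 had enough counts to be tested. RNA was extracted from fresh tissue. The 12Q tumors (2 libraries) grew in males with a humanised allele that encodes 12 glutamines in its polyglutamine tract, and the 48Q tumors (2 libraries) in males with the 48-glutamine version. Both also had 1 conditional Ctnnb1 allele with exon 3 flanked for deletion, over a wild-type allele, and PB-Cre4, a transgene in which a probasin promoter drives Cre recombinase in prostate epithelium. The normal prostates were from wild-type (WT) mice without any of these alleles. Tumor-free mice with the alleles were not analysed here, so tumor, transgene and humanised allele cannot be told apart in any difference below. The labels give no ages and do not say that replicates were separate animals. The p-values therefore reflect the spread of these libraries alone, and that spread may be technical.

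β-Catenin, the product of Ctnnb1, joins cadherins to the cytoskeleton at the cell membrane and carries the canonical Wnt signal to the nucleus. Without a Wnt signal, a complex of Axin, Apc and Gsk3b marks its N-terminus for destruction. That stretch is encoded by exon 3, so the protein made after its deletion accumulates and acts with TCF and LEF factors on target genes, several of which encode feedback inhibitors of the pathway. Normal prostate epithelium is a secretory tissue whose luminal cells release large amounts of protein into the seminal fluid and therefore maintain an extensive endoplasmic reticulum (ER).

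Libraries held 26416181 to 28559546 counts. A single gene, 9530053A07Rik, took 17.4% and 22.8% of the counts in WT prostate and 0.0580% to 2.99% in the tumors, so counts were scaled by the trimmed mean of M-values (TMM) and levels are given as CPM (counts scaled to a common library size). Tumor values are always given in the order 12Q replicate 1, 12Q replicate 2, 48Q replicate 1 and 48Q replicate 2, and WT values as replicate 1 and replicate 2. On the first principal component, which held 56.5% of the variance, the 12Q tumors lay at -73.9 and -100, the 48Q tumors at 5.08 and -9.82 and WT prostate at 87.9 and 91.0. The tumors were thus not a tight group, and the pooled test counts the distance between the tumor genotypes as spread. Replicates differed by far more than counting noise (chi-square over its degrees of freedom was 277 in 12Q, 42.2 in 48Q and 193 in WT).

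The labelled tissue was checked against prostate secretions. Pbsn, the probasin gene, was at 3.33 and 5.14 CPM in 12Q tumors, 3954 and 2248 CPM in 48Q tumors and 28214 and 16143 CPM in WT prostate. Tgm4, the prostate transglutaminase, was at 14538 and 598 CPM in 12Q tumors, 9655 and 7509 CPM in 48Q tumors and 68614 and 50100.0 CPM in WT prostate. Both were abundant in WT prostate and still plain in 48Q tumors, whereas Pbsn was nearly absent from 12Q tumors. The epithelial cadherin gene Cdh1 was at 1013, 1107, 744 and 699 CPM in the tumors and 1376 and 607 CPM in WT prostate. In bulk RNA, fewer cells of a type and less RNA per cell cannot be told apart, here or in any result below.

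Ctnnb1 itself (mm10, chromosome 9, 120933400 to 120960507) was at 958, 1035, 1082 and 957 CPM in the tumors and 669 and 569 CPM in WT prostate. Every tumor lay above both WT libraries, 1.63-fold on the means, yet the difference did not pass the test (log2 fold change 0.70 ± 0.29 (SE), edgeR adjusted p = 0.196). Counts per gene do not show whether exon 3 is present, so these values do not check the genotype.

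In the pooled comparison, 302 of 15050 genes tested (2.01%) rose in the tumors and 179 (1.19%) fell, at an adjusted p below 0.05 in edgeR's quasi-likelihood test. The risers moved further than the fallers. Their median log2 fold change was 3.46, against -1.89 for the genes that fell, and 0.04 over all genes tested. Of the risers, 23 had 0 counts in WT prostate and so no measured ratio, whereas 0 of the fallers had 0 counts in the tumors. In every one of the 481 genes called (3.2%), all 4 tumor libraries lay outside both WT libraries on the same side. That separation alone was common, since 3107 genes (20.6%) had all tumors above both WT libraries and 2548 (16.9%) had all tumors below. A gene with few or no counts in 1 group passed the filter on low counts only through the other group and so had to differ. For such genes the adjusted p and the call are a description.

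Other call rules, used below for comparison, passed more genes. At an unadjusted p below 0.05, edgeR's pooled fit had 2109 genes higher (14%) and 1576 lower (10.5%). DESeq2 at an adjusted p below 0.05 called 1643 higher (10.9%) and 955 lower (6.35%).

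The calls rest on having both WT libraries. Without either of them, edgeR's pooled fit called 0 genes in either direction. At an unadjusted p below 0.05 there were then 1158 genes higher and 870 lower without WT replicate 1, and 1828 and 1386 without WT replicate 2. Without 48Q replicate 2 the fit called 10 higher and 3 lower. DESeq2 called 930 higher and 327 lower without WT replicate 1, and 1585 and 867 without WT replicate 2. A fit that keeps 12Q and 48Q apart and tests their mean against WT is called the 3-group fit. Its calls need not be shared by the tumor genotypes, since a change in 1 of them can move the mean. It called 1324 genes higher (8.8%) and 1271 lower (8.45%), among them all 302 and all 179 of the pooled calls. Of those it kept 199 and 112 without WT replicate 1 and 265 and 167 without WT replicate 2. Scaling by library totals moved the median of all genes to 0.64. It gave 1463 genes higher and 78 lower, so that 94.9% of the calls were increases in place of 62.8%.

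**Figure D1:**
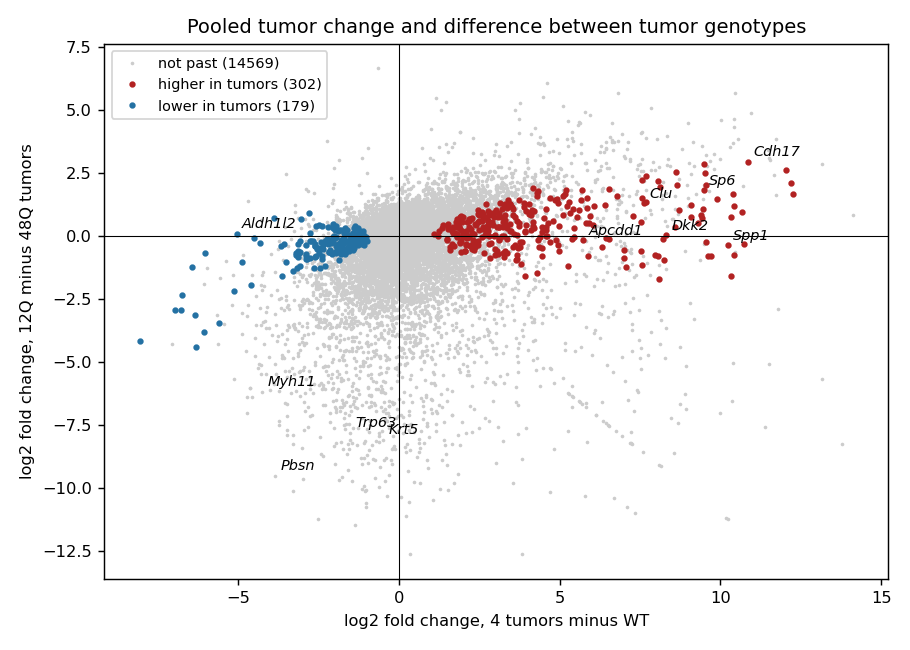
Each point is a gene tested, with its log2 fold change of the 4 tumors against WT prostate on the horizontal axis and of 12Q against 48Q tumors on the vertical axis. The 302 genes called higher (red) and the 179 called lower (blue) lie on both sides of 0 on the vertical axis, while Pbsn, Trp63, Krt5 and Myh11, which differ by 6 or more between the tumor genotypes, were not called.

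Differences between the tumor genotypes were measured in the 3-group fit, where 627 genes (4.17%) passed, 152 higher in 12Q (1.01%) and 475 higher in 48Q (3.16%). Only 11 of the 481 pooled calls were among them, which the pooled test favors by construction. The median absolute log2 ratio of 12Q to 48Q was 0.58 in genes called higher and 0.34 in genes called lower, against 0.57 over all genes. Of the increases, 9 were higher in 12Q: Cdh17, Cxcr4, Defa22, Dlx3, Fam25c, Fer1l4, Itpripl1, Sp6 and Tgfb1. Prex2, a regulator of Rac signalling, was the only increase that was higher in 48Q, at 164, 129.7, 359 and 459 CPM in the tumors and 12 and 16 CPM in WT prostate. Tmod4, a tropomodulin that caps actin filaments, was the only decrease that differed, at 2.59, 3.13, 8.61 and 8.36 CPM in the tumors and 58.8 and 82.9 CPM in WT prostate. The chemokine receptor gene Cxcr4 shows the graded form of these genes, with 36.1 and 27 CPM in 12Q tumors, 10.6 and 9.27 CPM in 48Q tumors and 0.522 and 0.619 CPM in WT prostate. Each tumor was above each WT library in Cxcr4, and each 12Q tumor above each 48Q tumor.

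Several Wnt target genes rose in the tumors. Of 18 tested members of a list of feedback inhibitors and direct targets, 7 rose, 0 fell and 11 did not pass, with a median log2 fold change of 2.27 against 0.04 over all genes. In 15 of the 18, all 4 tumors were above both WT libraries. The 7 were Apcdd1, Notum, Axin2, Lef1, Sox9, Cd44 and Bambi. These genes are textbook β-catenin targets, and the list was chosen with earlier results known.

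Axin2 (mm10, chromosome 11, 108920349 to 108950781), which encodes a scaffold of the β-catenin destruction complex and is the most used reporter of the pathway, was at 471, 771, 614 and 562 CPM in the tumors and 171 and 173 CPM in WT prostate. The WT libraries were nearly equal and each tumor exceeded them. The means differed 3.52-fold (log2 fold change 1.81 ± 0.32 (SE), edgeR adjusted p = 0.0410). Apcdd1, a membrane-bound Wnt antagonist, was at 555, 571, 682 and 571 CPM in the tumors and 3.65 and 18.7 CPM in WT prostate. It was among the steadiest increases, as 3 tumors differed by under 20 CPM while 48Q replicate 1 was higher (53.1-fold, log2 fold change 5.73 ± 0.78 (SE), edgeR adjusted p = 0.0263). Notum, a secreted enzyme that removes the lipid Wnt proteins need for receptor binding, was at 39.2, 59.5, 123 and 102 CPM in the tumors and 1.04 and 3.14 CPM in WT prostate. Here the 48Q tumors were the higher pair, and the lowest tumor was still over 10 times the higher WT library (log2 fold change 5.26 ± 0.76 (SE), edgeR adjusted p = 0.0295). Lef1, a DNA-binding partner of β-catenin, had the same order, with 16.6, 26.3, 44.9 and 34 CPM in the tumors and 2.66 and 5.88 CPM in WT prostate (log2 fold change 2.83 ± 0.56 (SE), edgeR adjusted p = 0.0489).

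Sox9, a transcription factor of progenitor cells in many epithelia, was at 325, 278, 234 and 163 CPM in the tumors and 57.8 and 26 CPM in WT prostate, a 5.96-fold difference (log2 fold change 2.58 ± 0.46 (SE), edgeR adjusted p = 0.0439). Cd44, a cell-surface receptor for hyaluronan, was highest in 12Q tumors, with 1012, 1298, 415 and 488 CPM in the tumors and 25.6 and 15.3 CPM in WT prostate (log2 fold change 5.30 ± 0.72 (SE), edgeR adjusted p = 0.0263). Bambi, a decoy receptor of the BMP pathway, varied most of the 7 among tumors, at 92.9, 72, 21.7 and 47.1 CPM in the tumors and 5.01 and 6.9 CPM in WT prostate (log2 fold change 3.29 ± 0.65 (SE), edgeR adjusted p = 0.0481). In each of these genes the tumor and WT ranges were apart. Nkd1, another feedback inhibitor, was a member that did not pass, at 556, 482, 675 and 463 CPM in the tumors and 63.4 and 251 CPM in WT prostate, with the WT libraries far from each other (edgeR adjusted p = 0.120). In the 3-group fit 12 of the 18 were higher, as were 12 by DESeq2 and 14 at an unadjusted p below 0.05. Without 48Q replicate 2 or either WT library the pooled fit called 0, and the 3-group fit called 5 without WT replicate 1.

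Among 36 tested Wnt ligands, receptors and secreted antagonists, 3 rose, 1 fell and 32 did not pass (median log2 fold change 0.87). Dkk2 (mm10, chromosome 3, 132085292 to 132180304), a secreted modulator that binds the Wnt co-receptors, was at 489, 697, 539 and 626 CPM in the tumors and 0.835 and 2.83 CPM in WT prostate. It was nearly absent from WT prostate and high in every tumor, 321-fold on the means (log2 fold change 8.31 ± 0.70 (SE), edgeR adjusted p = 0.0167). The ligand gene Wnt6 was at 23.8, 43.6, 39.4 and 35.4 CPM in the tumors and 0.417 and 1.95 CPM in WT prostate (log2 fold change 4.89 ± 0.71 (SE), edgeR adjusted p = 0.0295). The ligand gene Wnt4 was at 134, 163, 54.3 and 68.8 CPM in the tumors and 3.96 and 8.67 CPM in WT prostate, with 12Q tumors above 48Q tumors (log2 fold change 4.05 ± 0.66 (SE), edgeR adjusted p = 0.0353). Rspo2, whose product strengthens Wnt signalling by protecting the receptors, was the member that fell. It was at 0, 0, 0.120 and 0.0570 CPM in the tumors and 2.09 and 5.79 CPM in WT prostate (log2 fold change -6.30 ± 1.21 (SE), edgeR adjusted p = 0.0479), and 48Q replicate 1 was the only tumor above 3 counts. Rspo2 passed the count filter only through the WT libraries, so its call is a description. Wnt6, with 8 and 44 counts in WT prostate, passed it only through the tumors, so its call is a description too. Of 16 genes for the destruction complex and the nuclear partners of β-catenin, 0 passed in edgeR's pooled fit or in the 3-group fit, while 3 were higher at an unadjusted p below 0.05 and 1 by DESeq2. Their median was -0.09.

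**Figure D2:**
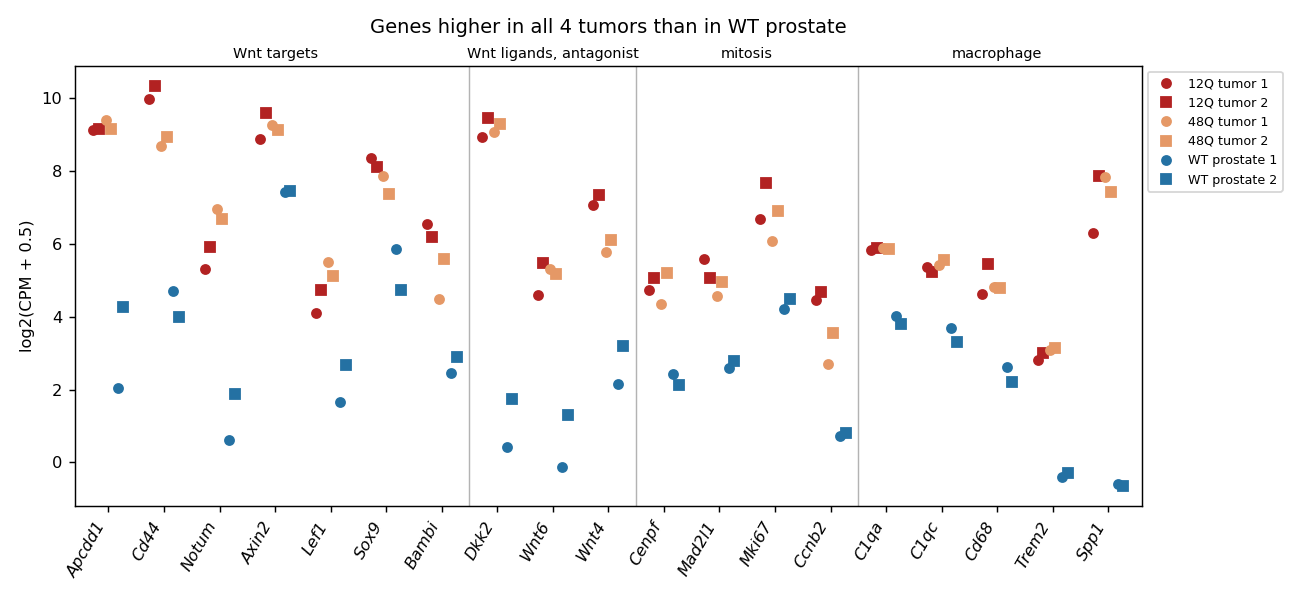
Levels of 19 genes called higher in the tumors, as log2 of CPM + 0.5, with a point for each of the 6 libraries. In each gene all 4 tumor points (red and orange) lie above both WT points (blue), and the steadiest tumor levels are those of C1qa, C1qc, Trem2 and Apcdd1.

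Some genes of mitosis rose in the tumors. Of 29 mitotic and G2/M genes, all of them tested, 9 rose, 0 fell and 20 did not pass. The median log2 fold change was 3.15, and in all 29 each tumor lay above both WT libraries. All 29 were higher by DESeq2 and at an unadjusted p below 0.05. Of 27 genes of DNA replication and the G1/S transition, 0 passed in edgeR's pooled fit, 9 were higher in the 3-group fit and 12 by DESeq2, and 14 were higher at an unadjusted p below 0.05. Their median was 1.57, and in 17 of 27 all tumors were above both WT libraries.

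Cenpf, a kinetochore protein gene, was at 25.9, 33.1, 19.9 and 36.4 CPM in the tumors and 4.85 and 3.89 CPM in WT prostate, a 6.59-fold rise (log2 fold change 2.72 ± 0.38 (SE), edgeR adjusted p = 0.0276). Mad2l1, a spindle checkpoint gene, was at 47.8, 32.6, 23.1 and 30.3 CPM in the tumors and 5.58 and 6.32 CPM in WT prostate (log2 fold change 2.49 ± 0.38 (SE), edgeR adjusted p = 0.0316). Mki67, whose protein is the standard histological marker of cycling cells, was at 103, 204, 66.9 and 118 CPM in the tumors and 18 and 22 CPM in WT prostate (log2 fold change 2.62 ± 0.49 (SE), edgeR adjusted p = 0.0460). The tumor with the most Mki67 was 12Q replicate 2 and that with the least 48Q replicate 1, and all stayed clear of WT prostate. The B-type cyclin gene Ccnb2 was at 21.6, 25.1, 6.02 and 11.2 CPM in the tumors and 1.15 and 1.24 CPM in WT prostate (log2 fold change 3.74 ± 0.73 (SE), edgeR adjusted p = 0.0481). Kif11 (mm10, chromosome 19, 37376403 to 37421859), the motor that separates spindle poles, was at 26.8, 48.5, 13 and 23.2 CPM in the tumors and 3.23 and 3.63 CPM in WT prostate (log2 fold change 3.02 ± 0.59 (SE), edgeR adjusted p = 0.0481). The other 4 were Cenpe, Ccna2, Aurkb and Hmmr, which rose 6.13-, 8.79-, 10.5- and 10.1-fold with edgeR adjusted p from 0.0419 to 0.0489. Cdk1, the kinase of mitotic entry, was at 33.1, 46.1, 11.1 and 16.4 CPM in the tumors and 3.18 and 4.2 CPM in WT prostate, again with no overlap, but missed the threshold (edgeR adjusted p = 0.0675). For Cdk1 and Ccnb2, both 12Q values were above both 48Q values. In the 3-group fit 28 of the 29 were higher, and 16 to 28 with a library left out, whereas the pooled fit called 0 without 48Q replicate 2 or either WT library.

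Promoters of mitotic genes are known for a cell cycle element, TTTGAA, that often lies near CCAAT boxes. RefSeq promoter entries (GRCm38.p6, the 250 bases before the start) were at hand for 24 of the 29 mitotic genes. On either strand, TTTGAA was present in 9 of the 24 (37.5%), against 13.1% of the 11551 tested genes with an entry, and CCAAT in 19 (79.2%) against 39.6%. For the 20 G1/S genes with an entry, TTTGAA was present in 3 (15%). The mitotic genes Cdc20, Cdk1, Kif2c, Prc1, Top2a and Ube2c held TTTGAA and did not pass, and Cenpe, Cenpf, Hmmr and Mad2l1 rose without it. The promoters of Ccnb2 and Kif11 are shown because both genes rose and hold both motifs, which are in capitals. That of Ccnb2 (chr9:70421555-70421804, minus strand) has TTTGAA 167 bases before the start and CCAAT at 87, 54 and 21 bases, and that of Kif11 (chr19:37376132-37376381, plus strand) has the motifs at 19 and 45 bases, both on the opposite strand. These distances are to the first base of the match as printed. In the Wnt target list, the TCF and LEF letters CTTTGAT were in 1 of 10 promoters with an entry (10%), against 2.95% of all. The holder, Sp5, was not called, while Axin2, Cd44 and Lef1 rose without a match. A match of letters is a description and not a site of binding.
Ccnb2: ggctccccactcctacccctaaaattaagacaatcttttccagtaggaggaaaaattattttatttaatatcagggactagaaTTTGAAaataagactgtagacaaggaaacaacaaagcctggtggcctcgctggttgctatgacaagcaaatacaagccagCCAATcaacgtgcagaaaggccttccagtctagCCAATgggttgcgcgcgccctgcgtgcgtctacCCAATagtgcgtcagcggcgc
Kif11: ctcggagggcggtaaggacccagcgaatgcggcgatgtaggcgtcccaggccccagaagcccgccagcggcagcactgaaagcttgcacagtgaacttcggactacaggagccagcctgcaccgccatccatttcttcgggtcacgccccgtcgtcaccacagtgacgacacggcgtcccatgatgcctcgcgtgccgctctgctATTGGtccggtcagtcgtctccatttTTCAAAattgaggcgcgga

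Some genes that carry proteins through the secretory pathway fell in the tumors. Of 26 genes of the unfolded protein response and the ER secretory machinery, 0 rose, 3 fell (Dnajb9, Atf6 and Sec61b) and 23 did not pass, with a median log2 fold change of -1.60. In 20 of the 26 all 4 tumors were below both WT libraries. The 3-group fit called 14 lower and DESeq2 20, and 21 were lower at an unadjusted p below 0.05. The sum of the list was 60184 CPM in WT replicate 1 and 22222 CPM in WT replicate 2, against 8932 to 16636 CPM in the tumors. The WT libraries thus differed from each other by more than WT replicate 2 differed from any tumor. Hspa5, the main ER chaperone gene, shows this, with 2646, 1466, 1899 and 2057 CPM in the tumors and 17749 and 2774 CPM in WT prostate, and did not pass (edgeR adjusted p = 0.112). Atf6, an ER stress sensor gene, was steadier in WT, with 173, 134, 252 and 229.8 CPM in the tumors and 783 and 735 CPM in WT prostate, and was 3.85-fold lower in tumors (log2 fold change -1.95 ± 0.31 (SE), edgeR adjusted p = 0.0344).

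Other steps of the pathway held decreases too. The groups that follow were put together after their values were seen, so their counts describe the calls and support nothing. Of 7 genes of the UFM1 system, which attaches the small protein UFM1 to ribosomes and other targets at the ER, 4 fell and 6 had all tumors below both WT libraries. Ufm1 itself was at 81, 58.6, 70.7 and 73 CPM in the tumors and 200.4 and 152 CPM in WT prostate (log2 fold change -1.32 ± 0.22 (SE), edgeR adjusted p = 0.0392). Ufl1, its ligase gene, fell most, at 98.4, 48.6, 145 and 125 CPM in the tumors and 674 and 732 CPM in WT prostate (log2 fold change -2.75 ± 0.42 (SE), edgeR adjusted p = 0.0316). Ufc1, the conjugating enzyme gene, and Ufsp2, a UFM1 protease gene, were 2.29- and 2.81-fold lower (edgeR adjusted p = 0.0431 and 0.0316). In these 4 genes the WT libraries differed less than 1.5-fold and no tumor reached them. Ddrgk1 and Cdk5rap3, 2 adaptors of the ligase, did not pass (edgeR adjusted p = 0.123 and 0.0823). Ddrgk1 was at 74.3, 45, 59.5 and 54.3 CPM in the tumors and 106 and 92.1 CPM in WT prostate, and Cdk5rap3 at 87.3, 50.9, 57.2 and 58.4 CPM in the tumors and 141 and 116 CPM in WT prostate.

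Of 16 genes of the COPII coat, which buds transport vesicles from the ER, and of cargo exit, 6 fell and 14 had all tumors below both WT libraries (median log2 fold change -1.14). Sec24d (mm10, chromosome 3, 123267496 to 123365636), a cargo-binding coat subunit gene, was at 82.2, 88.2, 103 and 105 CPM in the tumors and 512 and 299 CPM in WT prostate. The tumors lay within a narrow range and 4.28-fold under the WT mean (log2 fold change -2.10 ± 0.28 (SE), edgeR adjusted p = 0.0263). Lman1 and Mcfd2 encode the subunits of a cargo receptor, and both fell. Lman1 was at 166, 126, 165 and 174 CPM in the tumors and 562 and 453 CPM in WT prostate (log2 fold change -1.69 ± 0.24 (SE), edgeR adjusted p = 0.0295). Mcfd2 was at 146, 94.9, 118 and 119.5 CPM in the tumors and 598 and 374 CPM in WT prostate (log2 fold change -2.02 ± 0.29 (SE), edgeR adjusted p = 0.0287). Sec24a, Sec16a, an organiser of exit sites, and Preb, the exchange factor that starts coat assembly, were 2.66-, 2.3- and 2.56-fold lower (edgeR adjusted p = 0.0492, 0.0481 and 0.0332).

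Some genes of protein entry into the ER fell. Of 18 tested genes of the signal recognition particle, the translocon and the signal peptidase, 5 fell, 13 did not pass and 14 had all tumors below both WT libraries. Sec11c, a catalytic subunit of signal peptidase, was at 71.9, 85.8, 109 and 97.2 CPM in the tumors and 369.7 and 273 CPM in WT prostate (log2 fold change -1.82 ± 0.25 (SE), edgeR adjusted p = 0.0276). Srpr, the receptor of the signal recognition particle, was at 209.7, 162, 203 and 175 CPM in the tumors and 583 and 410.4 CPM in WT prostate (log2 fold change -1.41 ± 0.26 (SE), edgeR adjusted p = 0.0439), while Srp19, Srp68 and Sec61b were 2.4-, 2.63- and 2.81-fold lower. At the far end of the pathway, 4 of 8 Rab genes of secretory vesicles fell and 4 did not pass, 2 of which (Rab3b and Rab37) had all tumors above both WT libraries. Rab3d, found on secretory granules of exocrine glands, was at 60.5, 61.5, 84.9 and 65.9 CPM in the tumors and 358 and 271 CPM in WT prostate. It was 4.61-fold lower, and every tumor was far under either WT library (log2 fold change -2.21 ± 0.24 (SE), edgeR adjusted p = 0.0176). Rab27b and Rab3a were 2.77- and 3.54-fold lower (edgeR adjusted p = 0.0316 and 0.0316). Rab26 was at 0.0370, 0.0309, 0.0602 and 0.0856 CPM in the tumors and 2.24 and 1.15 CPM in WT prostate, with 3 counts or fewer in every tumor. It passed the count filter only through the WT libraries, so its call is a description.

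Some genes that make sugar donors for glycosylation fell. Of 20 genes of nucleotide sugar synthesis, 6 fell, 14 did not pass and 9 had all tumors below both WT libraries (median -0.84). Gmppb, which makes GDP-mannose, was at 28.7, 21.9, 21 and 21.8 CPM in the tumors and 105 and 80.0 CPM in WT prostate (log2 fold change -1.99 ± 0.23 (SE), edgeR adjusted p = 0.0214). Gmds, the first enzyme from GDP-mannose to GDP-fucose, was at 17.2, 11.9, 27.4 and 18.1 CPM in the tumors and 90.1 and 78.6 CPM in WT prostate (log2 fold change -2.18 ± 0.33 (SE), edgeR adjusted p = 0.0316). Gfpt1, the entry enzyme of the hexosamine pathway, was at 390.2, 459, 414 and 385 CPM in the tumors and 1641 and 1001 CPM in WT prostate (log2 fold change -1.68 ± 0.30 (SE), edgeR adjusted p = 0.0432). Pmm2, Pgm3 and Gmppa, enzymes of mannose and hexosamine donors and a regulator of Gmppb, were 3.5-, 3.25- and 2.12-fold lower, with edgeR adjusted p from 0.0393 to 0.0481. Fkbp11, an ER-resident prolyl isomerase gene of secretory cells, also named after its values were seen, was at 26.7, 23.3, 31.6 and 26.8 CPM in the tumors and 175 and 115 CPM in WT prostate (log2 fold change -2.42 ± 0.24 (SE), edgeR adjusted p = 0.0176).

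These decreases are relative to the TMM scale. With library totals, fewer passed: 1 of the UFM1 genes, 3 of the COPII genes, 1 of the ER entry genes, 2 of the nucleotide sugar genes and 2 of the Rab genes, and none of the called genes changed sign. The pooled fit called 0 in each of these 5 groups without 48Q replicate 2 or either WT library. The 3-group fit called 2, 6, 2, 4 and 4 without WT replicate 1. The secreted products themselves gave no calls. Of 13 tested, 0 passed in edgeR's pooled fit, 2 were higher and 2 lower in the 3-group fit and at an unadjusted p below 0.05, and DESeq2 called 2 higher and 1 lower. Their sum was 846 to 16799 CPM in tumors against 70142 and 100060 CPM in WT prostate. The part of the epithelial and smooth muscle markers given below in these decreases was not tested.

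The upstream letters CCACGT form the core that the ER stress factors XBP1 and ATF6 recognise. On either strand CCACGT was in 7 of 15 COPII promoters with a RefSeq entry (46.7%), in 2 of 7 UFM1 promoters (28.6%) and in 4 of 20 of the unfolded protein response list, against 10.7% of all 11551. The longer ER stress element (CCAAT, any 9 bases, then CCACG) can overlap CCACGT at its end. It was in 7 of the 20 (35%) against 0.139% of all, and its 7 holders (Calr, Canx, Creld2, Dnajc3, Hsp90b1, Hspa5 and Pdia6) included 0 called genes. CCACGT was also in the promoters of Sar1a, Sec16b, Sec24b, Sec24c, Sec31a, Cdk5rap3, Dnajc3, Herpud1 and Pdia6, which did not pass. Preb, Sec16a, Sec24a, Ufc1, Ufl1, Ufsp2 and Sec61b fell without a match to CCACGT. The promoters of Sec24d (chr3:123267246-123267495, plus strand), Mcfd2 (chr17:87265948-87266197, minus strand), Ufm1 (chr3:53863808-53864057, minus strand) and Dnajb9 (chr12:44210069-44210318, minus strand) are shown because all 4 genes fell, with CCACGT or its reverse complement ACGTGG in capitals. The match begins 24 bases before the start in Sec24d, 190 and 72 in Mcfd2, 27 in Ufm1 and 108 in Dnajb9. All 4 windows are GRCm38.p6 sequence from RefSeq.
Sec24d: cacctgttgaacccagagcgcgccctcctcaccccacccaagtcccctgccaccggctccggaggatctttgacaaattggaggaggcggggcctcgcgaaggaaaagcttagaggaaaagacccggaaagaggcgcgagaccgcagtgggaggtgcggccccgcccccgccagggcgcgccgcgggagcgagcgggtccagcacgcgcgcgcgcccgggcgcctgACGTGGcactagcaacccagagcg
Mcfd2: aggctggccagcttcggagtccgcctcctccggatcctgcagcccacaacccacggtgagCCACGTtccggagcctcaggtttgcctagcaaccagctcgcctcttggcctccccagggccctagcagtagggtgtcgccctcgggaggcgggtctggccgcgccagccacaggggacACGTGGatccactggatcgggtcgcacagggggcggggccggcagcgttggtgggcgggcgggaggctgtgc
Ufm1: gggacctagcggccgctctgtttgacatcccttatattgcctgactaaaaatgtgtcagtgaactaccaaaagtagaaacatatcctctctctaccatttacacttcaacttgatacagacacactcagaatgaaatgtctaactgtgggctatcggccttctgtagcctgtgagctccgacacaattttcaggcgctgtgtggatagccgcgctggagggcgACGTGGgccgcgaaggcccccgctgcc
Dnajb9: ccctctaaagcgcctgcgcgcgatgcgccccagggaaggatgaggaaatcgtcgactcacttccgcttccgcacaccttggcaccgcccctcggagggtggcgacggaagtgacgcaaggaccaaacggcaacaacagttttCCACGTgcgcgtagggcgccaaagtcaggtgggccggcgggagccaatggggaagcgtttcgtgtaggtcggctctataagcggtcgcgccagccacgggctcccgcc

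**Figure D3:**
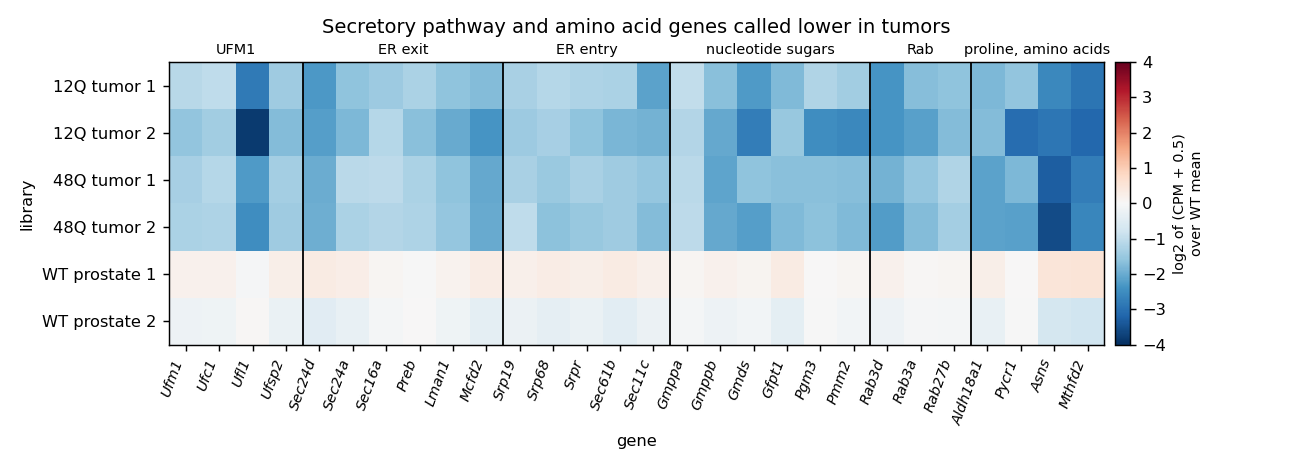
Heat map of 28 genes called lower in the tumors, in 6 groups from the UFM1 system to amino acid synthesis, as log2 of CPM + 0.5 minus the mean of the WT libraries. The 4 tumor libraries are blue in every column, and the WT libraries differ most from each other in Asns and Mthfd2.

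A few genes of amino acid and folate metabolism fell. Of 23 genes of serine, folate and amino acid supply, 4 fell (Aldh1l2, Mthfd2, Asns and Pycr1), 0 rose and 19 did not pass, with a median of -0.85. By DESeq2 3 were higher and 8 lower, where 10.9% and 6.35% of all genes were. At an unadjusted p below 0.05 there were 4 higher and 9 lower, against 14% and 10.5% of all genes. Aldh1l2 (mm10, chromosome 10, 83487447 to 83534140), a mitochondrial folate dehydrogenase gene, was at 1.29, 2.72, 2.14 and 1.65 CPM in the tumors and 69 and 60.1 CPM in WT prostate. It was low in every tumor and 33.1-fold below WT (log2 fold change -5.04 ± 0.35 (SE), edgeR adjusted p = 0.0124). Mthfd2, the preceding mitochondrial folate enzyme, was at 12.8, 10.9, 14.1 and 15.8 CPM in the tumors and 142 and 57 CPM in WT prostate (log2 fold change -2.89 ± 0.37 (SE), edgeR adjusted p = 0.0247). Asns (mm10, chromosome 6, 7675171 to 7693182), asparagine synthetase, was at 73.6, 59.1, 44.7 and 37.1 CPM in the tumors and 615 and 272 CPM in WT prostate (log2 fold change -3.05 ± 0.40 (SE), edgeR adjusted p = 0.0263). In Mthfd2 and Asns WT replicate 1 was over 2 times WT replicate 2, and both stayed well above every tumor.

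Proline synthesis, a group put together after the values were seen, had 2 of 3 genes lower. Aldh18a1, which catalyses the first steps, was at 46.2, 48.9, 36.6 and 36 CPM in the tumors and 192 and 132 CPM in WT prostate (log2 fold change -1.95 ± 0.24 (SE), edgeR adjusted p = 0.0240). Pycr1, a reductase gene, was at 15.8, 5.42, 13.5 and 10.4 CPM in the tumors and 48.7 and 47.4 CPM in WT prostate (log2 fold change -2.09 ± 0.41 (SE), edgeR adjusted p = 0.0481). Both genes were low in every tumor, with 12Q replicate 2 lowest for Pycr1. Of the 23 genes of amino acid supply the 3-group fit called 8 lower, and the pooled fit called 1 without 48Q replicate 2 and 0 without either WT library.

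The composite element TGATGNAA, bound by ATF4 with C/EBP factors in amino acid response genes, was on either strand in 3 of 18 promoters of this list with an entry (16.7%: Asns, Pycr1 and Slc7a11), against 2.54% of all 11551. Those of Asns (chr6:7693210-7693459, minus strand) and Pycr1 (chr11:120643749-120643998, minus strand) are shown because both genes fell, with the match in capitals 23 and 103 bases before the start. Slc7a11 was not called, and Mthfd2 fell without a match.
Asns: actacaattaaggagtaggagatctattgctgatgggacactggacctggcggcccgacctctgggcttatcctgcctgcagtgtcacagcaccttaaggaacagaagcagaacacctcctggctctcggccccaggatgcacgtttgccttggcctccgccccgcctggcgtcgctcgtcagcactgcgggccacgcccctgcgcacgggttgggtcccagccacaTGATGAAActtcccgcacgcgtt
Pycr1: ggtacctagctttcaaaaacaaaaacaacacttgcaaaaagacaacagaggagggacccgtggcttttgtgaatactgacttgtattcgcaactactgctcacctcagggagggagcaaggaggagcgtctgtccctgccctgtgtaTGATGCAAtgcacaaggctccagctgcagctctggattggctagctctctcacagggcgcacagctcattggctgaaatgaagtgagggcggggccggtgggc

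Other decreases were large and shared. Mt1 and Mt2, metallothioneins that bind zinc, fell 8.36- and 8.43-fold. Mt1 was at 127, 62.6, 125 and 90.7 CPM in the tumors and 1115 and 579 CPM in WT prostate (log2 fold change -3.06 ± 0.40 (SE), edgeR adjusted p = 0.0257), and Mt2 at 89.1, 49.5, 115 and 99.3 CPM in the tumors and 1000.0 and 486 CPM in WT prostate (log2 fold change -3.08 ± 0.42 (SE), edgeR adjusted p = 0.0263). The lowest WT value was over 4 times the highest tumor value in each. Of 4 metallothioneins tested, only these 2 fell. Mt3 was not called, at 7.10, 1.24, 347 and 185 CPM in the tumors and 102 and 84.6 CPM in WT prostate. Mcoln3 and Mcoln2, cation channels of endosomes and lysosomes, were low in every tumor. Mcoln3 was at 0.0740, 0.0619, 1.17 and 0.0856 CPM in the tumors and 28.8 and 29.2 CPM in WT prostate (log2 fold change -6.35 ± 1.21 (SE), edgeR adjusted p = 0.0475), and 48Q replicate 1 was the only tumor above 3 counts. It passed the count filter only through the WT libraries, so its call is a description. Mcoln2 was at 8.47, 2.01, 10.6 and 2.02 CPM in the tumors and 89.6 and 138 CPM in WT prostate (log2 fold change -4.30 ± 0.74 (SE), edgeR adjusted p = 0.0399). Their relative Mcoln1 did not pass, at 1.035-fold higher in the tumors (edgeR adjusted p = 0.93). The remaining largest decreases were in Col6a4, a collagen VI chain, Fgl1, a secreted fibrinogen-like protein, Aldh1a2, which makes retinoic acid, and Nkain1, Cux2 and Plac8, beside Aldh1l2 and Tmod4 described above. They were 87.6-, 34.7-, 24.3-, 12.5-, 11.9- and 11.4-fold lower, with edgeR adjusted p from 0.0176 to 0.0409. Aldh1a2 was at 2.04, 1.18, 3.46 and 8.9 CPM in the tumors and 98.4 and 90.7 CPM in WT prostate, so that the ranges were far apart.

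Of 16 tested macrophage markers, 8 rose, 0 fell and 8 did not pass, with a median log2 fold change of 2.45. All tumors were above both WT libraries in 13. By DESeq2, and also at an unadjusted p below 0.05, 13 were higher and 1 lower. The complement gene C1qa (mm10, chromosome 4, 136895916 to 136898844) was at 56.5, 58.3, 58.3 and 57.2 CPM in the tumors and 15.8 and 13.5 CPM in WT prostate, the most even of all increases named, and 3.94-fold higher (log2 fold change 1.98 ± 0.22 (SE), edgeR adjusted p = 0.0176). C1qb and C1qc, which encode the other chains of C1q, rose 3.48- and 3.84-fold (edgeR adjusted p = 0.0402 and 0.0263). The lysosomal marker Cd68 was at 24.1, 43.2, 27.9 and 27.1 CPM in the tumors and 5.69 and 4.16 CPM in WT prostate (log2 fold change 2.63 ± 0.38 (SE), edgeR adjusted p = 0.0293). Adgre1, the F4/80 antigen gene, was at 17.9, 20.9, 26.4 and 23.2 CPM in the tumors and 4.49 and 3.63 CPM in WT prostate (log2 fold change 2.45 ± 0.33 (SE), edgeR adjusted p = 0.0263), and Fcgr1, an antibody receptor gene, was 5.48-fold higher (edgeR adjusted p = 0.0475).

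Trem2, a lipid receptor gene, was at 6.47, 7.52, 7.92 and 8.33 CPM in the tumors and 0.261 and 0.310 CPM in WT prostate (log2 fold change 4.71 ± 0.52 (SE), edgeR adjusted p = 0.0176). Spp1 (mm10, chromosome 5, 104435111 to 104441053), which encodes osteopontin and can also be made by epithelial cells, was at 78.1, 233, 229 and 172 CPM in the tumors and 0.156 and 0.133 CPM in WT prostate, 1232-fold higher with WT prostate at 3 counts in each library (log2 fold change 10.23 ± 0.78 (SE), edgeR adjusted p = 0.0124). Trem2 and Spp1 passed the count filter only through the tumors, so their calls, 2 of the 8, are a description. Gpnmb and Mmp12, named after their values were seen, rose too. Gpnmb was at 56.9, 177, 143 and 134 CPM in the tumors and 3.81 and 14.8 CPM in WT prostate (log2 fold change 3.78 ± 0.74 (SE), edgeR adjusted p = 0.0481), and Mmp12 at 37.4, 179, 103 and 71.6 CPM in the tumors and 2.24 and 2.21 CPM in WT prostate (log2 fold change 5.45 ± 0.76 (SE), edgeR adjusted p = 0.0279). For Spp1, Gpnmb and Mmp12 the lowest tumor was 12Q replicate 1, still above both WT libraries. Cd163, a marker of tissue-resident macrophages, went another way, at 0.0370 and 0.0309 CPM in 12Q tumors, 3.04 and 2.88 CPM in 48Q tumors and 2.4 and 4.64 CPM in WT prostate. The 3-group fit called 13 of the 16 higher and 2 lower, and the pooled fit called 1 without 48Q replicate 2 and 0 without either WT library.

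Other cells of the stroma gave fewer calls. The smooth muscle list of 12 genes had 1 lower, a median of -3.44 and 9 genes with all tumors below both WT libraries. The gene called was Mylk, myosin light chain kinase, at 71.1, 70.9, 148 and 83.5 CPM in the tumors and 336 and 1054 CPM in WT prostate (log2 fold change -2.90 ± 0.51 (SE), edgeR adjusted p = 0.0417). Summed, the smooth muscle list was at 2803 and 7375 CPM in WT prostate. The sum was 1080 and 422 CPM in 48Q tumors and 134 and 130 CPM in 12Q tumors. The 3-group fit called 10 of the 12 lower and DESeq2 8, and 11 were lower at an unadjusted p below 0.05. Of 14 endothelial genes, Esam, a junction protein gene, rose, at 21.5, 19.6, 16 and 17.9 CPM in the tumors and 2.97 and 4.86 CPM in WT prostate (log2 fold change 2.25 ± 0.37 (SE), edgeR adjusted p = 0.0353). Emcn, an endothelial sialomucin gene, fell, at 17.4, 10.8, 11 and 9.41 CPM in the tumors and 59.6 and 40.1 CPM in WT prostate (log2 fold change -2.04 ± 0.33 (SE), edgeR adjusted p = 0.0344). The endothelial list's median was 1.97 and its sum 220 to 568 CPM in tumors against 91.1 and 155 CPM in WT prostate. In 12 of the 14 all tumors were above both WT libraries. By the 3-group fit 6 of the 14 were higher and 1 lower, and by DESeq2 10 and 1. S100a8 was the 1 neutrophil gene of 5 tested that rose, at 3.37, 4.15, 2.05 and 2.51 CPM in the tumors and 0 counts in both WT libraries, at least 20.9-fold higher (edgeR adjusted p = 0.0291). It too passed the count filter only through the tumors. Of 15 fibroblast, 16 collagen, 11 T and NK cell, 4 B and plasma cell, 9 mast cell and 3 red blood cell genes tested, 0 passed in edgeR's pooled fit. The 3-group fit called 9 fibroblast and 2 mast cell genes lower, 1 collagen gene each way and 1 T and NK cell gene higher. All tumors were below both WT libraries in only 3 fibroblast and 0 mast cell genes. Of these lists, 8 fibroblast and 5 mast cell genes were higher in 48Q than in 12Q tumors, against 3.16% of all genes. At an unadjusted p below 0.05 these 6 lists held 6 genes higher and 4 lower of 58 tested, where 14% and 10.5% of all genes passed, and DESeq2 called 6 higher and 1 lower. The part of these cells in the other results was not tested.

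Markers of neighboring tissues were checked. Seminal vesicle secretion genes summed to 0.782 and 0.884 CPM in WT prostate, to 0.962 and 2.35 CPM in 12Q and to 30.9 and 62.7 CPM in 48Q tumors. Of 7 tested, edgeR's pooled fit called 0 (2 higher in the 3-group fit, 2 at an unadjusted p below 0.05, 4 by DESeq2). Skeletal muscle genes summed to 75.2 and 203 CPM in WT prostate and to 4.46 to 10.4 CPM in tumors. Of 5 tested, edgeR's pooled fit called 0 (2 lower in the 3-group fit, 2 at an unadjusted p below 0.05, 1 by DESeq2). Of 6 urothelial genes Upk2, a uroplakin gene, rose to 10.3, 14.2, 12.4 and 14.2 CPM in the tumors from 0.991 and 1.5 CPM in WT prostate (log2 fold change 3.35 ± 0.43 (SE), edgeR adjusted p = 0.0257). The 3-group fit and DESeq2 each called 1 of the 6 higher and 1 lower. The urothelial list summed to 905, 140, 119 and 134 CPM in the tumors and to 270 and 268 CPM in WT prostate. Of 5 adipocyte genes Pparg rose, at 6.11, 9.38, 4.43 and 4.65 CPM in the tumors and 0.730 and 0.619 CPM in WT prostate (log2 fold change 3.18 ± 0.59 (SE), edgeR adjusted p = 0.0461).

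Epithelial markers gave calls in both directions. Among 16 luminal markers, not all of them described here, 3 rose and 1 fell, with a median of 0.36. Clu, the secreted chaperone clusterin, was at 14194, 8889.7, 4879 and 4476 CPM in the tumors and 53.4 and 28.5 CPM in WT prostate. Every tumor was far above WT prostate, 198-fold on the means (log2 fold change 7.63 ± 1.00 (SE), edgeR adjusted p = 0.0263). Krt4, a keratin of luminal progenitor cells, was at 19.5, 13.7, 15.2 and 20.6 CPM in the tumors and 1.36 and 2.61 CPM in WT prostate (log2 fold change 3.12 ± 0.45 (SE), edgeR adjusted p = 0.0298), whereas Prom1, another progenitor marker, fell, at 25.3, 88.7, 83 and 48.3 CPM in the tumors and 423 and 392 CPM in WT prostate (log2 fold change -2.73 ± 0.47 (SE), edgeR adjusted p = 0.0409). Of 16 basal markers 0 passed in edgeR's pooled fit, with 1 higher and 1 lower at an unadjusted p below 0.05 and by DESeq2. The 3-group fit called 1 higher and 6 lower. It called 6 higher in 48Q than in 12Q tumors, against 3.16% of all genes. Krt5, the main basal keratin gene, differed between the tumor genotypes, at 0.0740 and 0.433 CPM in 12Q tumors, 65.2 and 79.5 CPM in 48Q tumors and 30.2 and 72.1 CPM in WT prostate. Trp63, the basal transcription factor gene, followed it, at 0.0370 and 0.186 CPM in 12Q tumors, 29.6 and 24.2 CPM in 48Q tumors and 33.9 and 42.9 CPM in WT prostate. These 2 genes were near 0 in 12Q tumors, whereas the sum of the 16 was 1040 and 1515 CPM in 12Q tumors, 1710 and 1682 CPM in 48Q tumors and 2387 and 1562 CPM in WT prostate. Runx1 was the 1 of 17 lineage transcription factors that rose, at 90.1, 144, 86.5 and 94.2 CPM in the tumors and 32.4 and 23.7 CPM in WT prostate (log2 fold change 1.89 ± 0.32 (SE), edgeR adjusted p = 0.0384). Of 3 tested neuroendocrine markers 0 passed in edgeR, in DESeq2 or at an unadjusted p below 0.05, and the other 8 had too few counts.

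Androgen-responsive genes split. Of 24 tested, 3 rose (Pmepa1, Mboat2 and Homer2), 3 fell (Sgk1, Zbtb10 and Slc45a3) and 18 did not pass, and 12 had all tumors below both WT libraries (median -0.85). Pmepa1, whose product dampens TGF-β signals, was at 41.6, 71.4, 40.8 and 53 CPM in the tumors and 6.47 and 8.98 CPM in WT prostate (log2 fold change 2.74 ± 0.36 (SE), edgeR adjusted p = 0.0263). Mboat2, a phospholipid acyltransferase gene, was at 26.5, 42.2, 20.7 and 27.3 CPM in the tumors and 1.15 and 3.23 CPM in WT prostate (log2 fold change 3.73 ± 0.58 (SE), edgeR adjusted p = 0.0327). Sgk1, a serum- and steroid-induced kinase gene, was at 138, 87.2, 138 and 89.4 CPM in the tumors and 548 and 376 CPM in WT prostate (log2 fold change -2.03 ± 0.31 (SE), edgeR adjusted p = 0.0316). Zbtb10, a zinc finger repressor gene, was at 69.3, 34.4, 65 and 63.8 CPM in the tumors and 202 and 184 CPM in WT prostate, with 12Q replicate 2 the lowest (log2 fold change -1.73 ± 0.30 (SE), edgeR adjusted p = 0.0410). Slc45a3, the prostein gene, was at 32.3, 32.1, 43.9 and 39.3 CPM in the tumors and 74.2 and 118 CPM in WT prostate (log2 fold change -1.38 ± 0.26 (SE), edgeR adjusted p = 0.0475). In the 3-group fit 4 were higher and 10 lower, and by DESeq2 5 and 9. There were 4 higher and 11 lower at an unadjusted p below 0.05.

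The largest increases were in genes with few or no counts in WT prostate. Such genes passed the filter on low counts only through the tumors, so their values are given as a description. Defa21, an α-defensin gene, was at 29.7, 36.1, 8.43 and 12.4 CPM in the tumors and at 0 counts in both WT libraries, at least 149.9-fold higher (log2 fold change 12.26 ± 1.51 (SE), edgeR adjusted p = 0.0279). Its relatives Defa22 and Defa34 were also called, among 7 tested of 21 in the table, and near-identical copies make the assignment of reads within this family uncertain. Adtrp, named for its response to androgen, was at 39.8, 27.3, 5.81 and 9.64 CPM in the tumors and at 0 counts in WT prostate, at least 143-fold higher (log2 fold change 12.19 ± 1.85 (SE), edgeR adjusted p = 0.0384). Cdh17, a cadherin of the intestine, was at 339, 161, 17.6 and 47.1 CPM in the tumors and 0.0522 and 0.0884 CPM in WT prostate, or 3 counts in all in WT prostate, a ratio of 1815 (exact 95% interval 621 to 8802). Apoc4, an apolipoprotein gene, was even among tumors, at 18.9, 19.7, 19.1 and 26.8 CPM in the tumors against 1 count in WT prostate, a ratio of 891 (exact 95% interval 159.7 to 35190.0). The bounds and intervals cover counting error only, and use 3 counts per library where a group had none.

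Hair and keratin genes were among those with few WT counts. Sp6, a transcription factor of hair and tooth development, was at 389, 460.0, 97.3 and 144 CPM in the tumors and 0.209 and 0.531 CPM in WT prostate, 738-fold higher (log2 fold change 9.48 ± 1.12 (SE), edgeR adjusted p = 0.0225). Dlx3, a homeobox gene of hair and enamel, was at 64.7, 114, 15.1 and 22.7 CPM in the tumors and 0.156 and 0.398 CPM in WT prostate, 195-fold higher (log2 fold change 7.56 ± 1.26 (SE), edgeR adjusted p = 0.0373). Krt73, a keratin of the inner root sheath, was at 35.8, 156, 10.1 and 16.6 CPM in the tumors against 3 counts in WT prostate, a ratio of 754 (exact 95% interval 258 to 3658). Tgm3, the transglutaminase of hair and epidermis, was at 38.6, 148, 8.64 and 24 CPM in the tumors against 3 counts, a ratio of 760.0 (exact 95% interval 260.0 to 3686). In both, 12Q replicate 2 was over 3 times any other tumor. Krt36 was at 1.44, 4.18, 9.7 and 7.22 CPM in the tumors and 0 counts in WT prostate, at least 39-fold higher, and here the 48Q tumors were the higher pair. Of 25 hair genes 18 were tested and 4 called, and of 28 squamous genes 23 were tested and 3 called (Krt6a, Lor and Tgm3). The squamous list as a whole summed to 410 and 169 CPM in WT prostate and to 847, 1468, 346 and 479 CPM in the tumors. Of 55 keratin genes, 37 had enough counts and 7 were called (Krt4, Krt6a, Krt36, Krt42, Krt72, Krt73 and Krt90). The remaining largest increases were Ceacam19, at 15.1, 51.8, 4.88 and 11.6 CPM in the tumors against 1 count in WT prostate (ratio 868 (exact 95% interval 156 to 34290.0)), and Fam25c, at 28.9, 34.8, 3.49 and 6.7 CPM in the tumors against 0 counts, at least 128-fold higher.

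Single genes of other pathways rose, where 2.01% of all genes tested were called higher. Bmp2 was at 86.5, 38.4, 64.1 and 45.6 CPM in the tumors and 2.97 and 4.69 CPM in WT prostate (log2 fold change 3.93 ± 0.48 (SE), edgeR adjusted p = 0.0240), and with Bambi it made 2 of 20 BMP genes. The Hedgehog ligand gene Ihh was the 1 of 13 in its pathway, at 24.1, 10.2, 10.9 and 13.3 CPM in the tumors and 0.991 and 1.68 CPM in WT prostate (log2 fold change 3.45 ± 0.58 (SE), edgeR adjusted p = 0.0384). The EGF receptor ligand gene Areg was the 1 of 21 FGF and EGF genes, at 5.22, 8.45, 4.43 and 20.7 CPM in the tumors against 3 counts in WT prostate, a ratio of 140.5 (exact 95% interval 48 to 682). Tgfb1 was at 80.6 and 94.6 CPM in 12Q tumors, 32.9 and 40.4 CPM in 48Q tumors and 10.1 and 8.89 CPM in WT prostate (log2 fold change 2.71 ± 0.53 (SE), edgeR adjusted p = 0.0484). Igfbp4, an IGF-binding protein gene, was the 1 of 13 of its axis, at 155, 98.2, 88.8 and 107 CPM in the tumors and 24.2 and 41.1 CPM in WT prostate (log2 fold change 1.78 ± 0.35 (SE), edgeR adjusted p = 0.0490). Egr1 was the 1 of 14 immediate early genes, at 273, 289, 176 and 118 CPM in the tumors and 29.8 and 41.5 CPM in WT prostate (log2 fold change 2.59 ± 0.46 (SE), edgeR adjusted p = 0.0422). Of 15 interferon-stimulated genes 3 rose. The antiviral enzyme gene Oas1a was at 6.55, 17.3, 9.76 and 8.47 CPM in the tumors and 0.261 and 0.398 CPM in WT prostate (log2 fold change 4.97 ± 0.67 (SE), edgeR adjusted p = 0.0263). Ifi44 and the regulator Irf7 were 7.88- and 4.33-fold higher (edgeR adjusted p = 0.0475 for both). In all of these genes the tumor and WT ranges were apart. Oas1a and Areg passed the count filter only through the tumors, so their calls are a description. Other rules gave other counts for these lists. DESeq2 called 8 of the 14 immediate early genes, 8 of the 15 interferon-stimulated genes, 5 BMP, 2 Hedgehog, 2 FGF and EGF and 3 IGF genes higher, and 1 BMP, 1 FGF and EGF and 1 IGF gene lower. In the same order, the 3-group fit called 6, 6, 4, 1, 3 and 2 higher and 0, 0, 3, 1, 6 and 3 lower. Over all genes, 10.9% were higher and 6.35% lower by DESeq2, and 8.8% and 8.45% in the 3-group fit. Of 15 Notch genes 0 passed in edgeR's pooled fit, with 6 higher at an unadjusted p below 0.05 and by DESeq2 and 2 in the 3-group fit.

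Central metabolism gave no pooled calls, where 3.2% of all genes were called. Of 21 oxidative phosphorylation genes 0 passed in edgeR's pooled fit, in the 3-group fit or by DESeq2, and 1 was lower at an unadjusted p below 0.05. Of 20 genes of glycolysis and lactate transport 0 passed in edgeR's pooled fit. There were 4 higher and 1 lower at an unadjusted p below 0.05, and 3 and 1 by DESeq2. Between the tumor genotypes, 12 of the 20 were higher in 12Q than in 48Q tumors, against 1.01% of all genes. Ldha, lactate dehydrogenase, was at 917 and 1025 CPM in 12Q tumors, 265 and 290.1 CPM in 48Q tumors and 383 and 363 CPM in WT prostate. Aldoa, a glycolytic aldolase gene, was at 1190.5 and 1161 CPM in 12Q tumors, 322 and 314 CPM in 48Q tumors and 397 and 326 CPM in WT prostate. In both genes the 12Q tumors were high and the 48Q tumors were below both WT libraries, so the tumors had no common direction. Of 21 sterol and fatty acid genes and 18 CDK inhibitors and p53 targets, 0 passed in edgeR's pooled fit. The 3-group fit called 2 sterol and fatty acid genes higher, and 3 higher and 1 lower of the others. DESeq2 called 2 and 3 higher and 1 and 0 lower, and 3 and 7 were higher and 2 and 1 lower at an unadjusted p below 0.05. Over all genes, 8.8% were higher and 8.45% lower in the 3-group fit, and 10.9% and 6.35% by DESeq2. The shares at an unadjusted p below 0.05 were 14% and 10.5%.

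**Figure D4:**
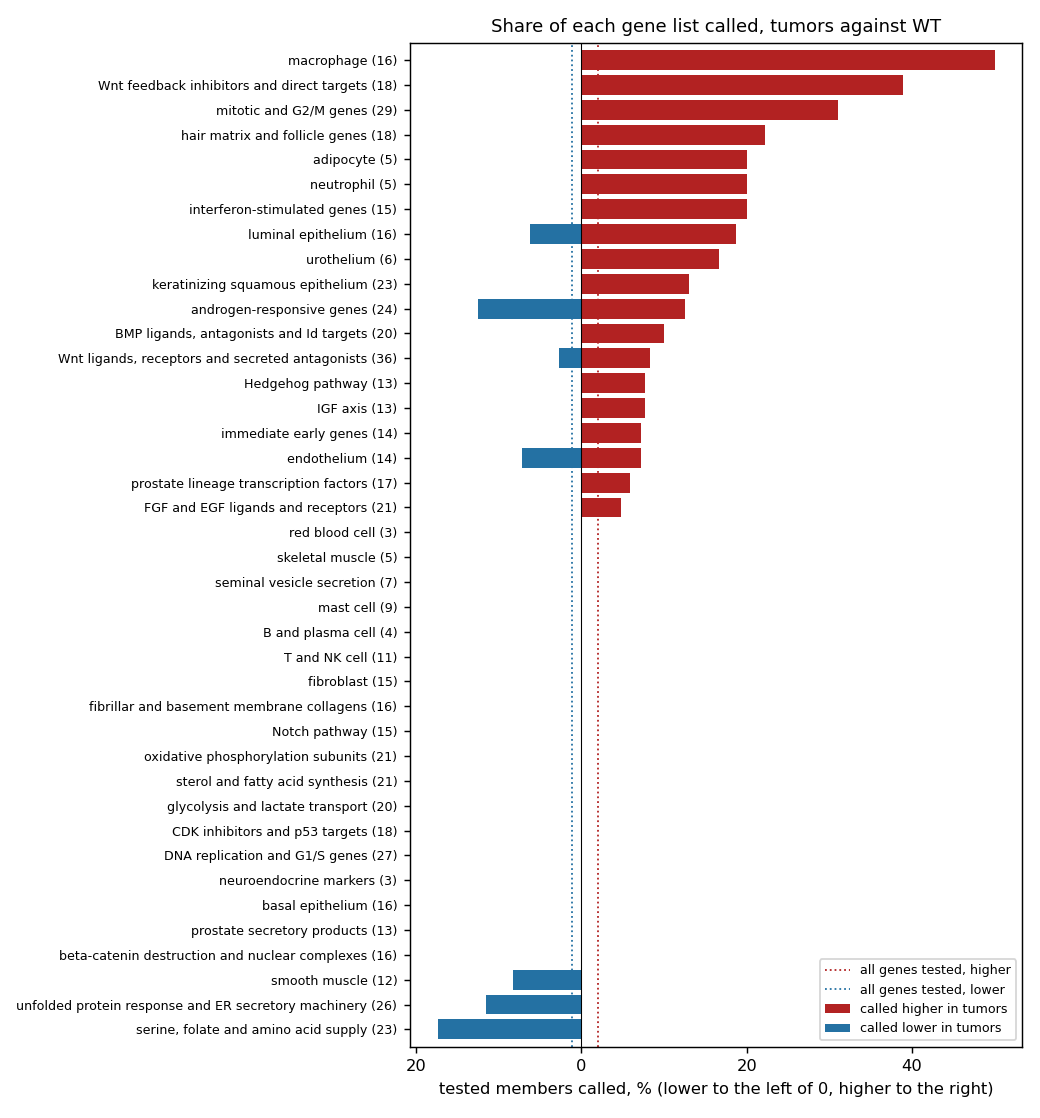
For each gene list, with its number of tested members, the bars give the percentage of members called higher (red, right of 0) or lower (blue, left of 0) in the tumors, and dotted lines the 2.01% and 1.19% of all genes. Macrophage, Wnt target and mitotic genes have the longest red bars and amino acid, androgen-responsive and ER genes the longest blue ones. The called members of the hair and squamous lists passed the count filter only through the tumors.

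The genes with the most even tumor levels were taken by a rule of small spread among the 4 tumors. Among increases these included C1qa, C1qc and Apcdd1, described above, with Rbms3, an RNA-binding protein gene, and Amot, a regulator of Hippo signalling. Rbms3 was at 282, 249, 258 and 276 CPM in the tumors and 31.7 and 44.5 CPM in WT prostate (log2 fold change 2.80 ± 0.27 (SE), edgeR adjusted p = 0.0176). Amot was at 124, 137, 129.9 and 114 CPM in the tumors and 56 and 63.3 CPM in WT prostate (log2 fold change 1.08 ± 0.21 (SE), edgeR adjusted p = 0.0479). Among decreases, R3hcc1l was at 39, 37.5, 37.5 and 38.5 CPM in the tumors and 95.7 and 88.7 CPM in WT prostate (log2 fold change -1.27 ± 0.18 (SE), edgeR adjusted p = 0.0279), with 4 nearly equal tumor values. Arfgap3, which acts on vesicles of the early secretory pathway, was at 119.8, 122, 120.2 and 105 CPM in the tumors and 466 and 299 CPM in WT prostate (log2 fold change -1.71 ± 0.25 (SE), edgeR adjusted p = 0.0293). Tmem183a, Tor2a, an ER ATPase gene, Gmppa and Tmem214 were 2.02-, 2.51-, 2.12- and 2.52-fold lower, with edgeR adjusted p from 0.0306 to 0.0475. The choice by small spread fixes that these genes look alike in 12Q and 48Q tumors.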

How the data were processed

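The authors deposited 1 table of whole-number counts of reads per gene for the 6 libraries, without normalization. TopHat2 2.0.14 (build mm10) and HTSeq 0.6.0 are the aligner and counter named in the submitters' processing notes. How strands and reads with several matches were handled is not given in the sources used here. Samples were grouped by their titles. The number of columns without a sample was 0. Per the labels' protocols, RNA was extracted with RNA-Bee and libraries were made with a Kapa RNA HyperPrep kit.

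Genes were filtered with filterByExpr (minimum count 10, minimum total 15), scaled by TMM and tested with edgeR 4.0.16 in R 4.3.3 by the quasi-likelihood F test, with 4 tumors against 2 WT (4 residual degrees of freedom) and, for 12Q against 48Q, in a fit of 3 groups (3 residual degrees of freedom). Benjamini-Hochberg adjustment ran over the 15050 genes kept, at a threshold of 0.05. The procedure was tested on simulated counts with known changes in genes well above the count filter. The pooled test recovered 46% of 4-fold and 91% of 16-fold changes, and 2 of its 139 calls were in unchanged genes. A list with 0 calls can thus hold changed genes. Folds are ratios of mean CPM, and a count of 3 was worth 0.0856 to 0.156 CPM. Alternatives were DESeq2 1.42.0, other scalings, no filter, a replicate block and leaving out each library.

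Named genes were Ctnnb1, then called genes with groups that did not overlap, without predicted names: the 10 largest changes each way (higher group at 10 CPM or more), the 6 each way with the least spread among tumors (a log2 change of at least 1, at least 5 CPM in both groups), and per list up to 4 called members, or the 2 most abundant where 0 passed. Gene lists, groups and members were chosen with earlier results of these data known, and genes outside the rule after their values were seen. Of 24091 symbols, 23509 were in GENCODE M21, and 23446 of these (99.7%) overlapped that gene. Mitochondrially encoded genes were not analysed here. Because strand use is unknown, values are uncertain for genes whose exons overlap another gene, here Axin2, Notum, Lef1, Spp1, Apoc4, Sp6, Ctnnb1, Aldh1l2, Col6a4, R3hcc1l, Tor2a, Tmem214, Mboat2, Runx1, Prom1, Slc45a3, Tgm4, Krt5, Krt6a, Krt90, Aldoa, Ccna2, Mmp12, Irf7, Mylk, Mt2, Dnajb9, Ufl1, Ufsp2, Cdk5rap3, Preb, Srpr, Gmppb, Pgm3, Pmm2, Rab26 and Rab3a. The same holds for Dst, Notch2 and Ncam1. Krt6a, the defensins and the metallothioneins also have close relatives. Some genes that the rule names, or that belong to these groups, are not reported here.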

Additional observations from a re-analysis of the deposited data

Results flagged for a closer look

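Among the 176 genes examined, 13 had a tumor library that stood apart from the other 3. The gap to its nearest neighbor, as a share of the range of the 4 tumors, was above Dixon's limit, which chance passes in about 1 in 20 groups. The gap was 0.979 for Mcoln3 (48Q replicate 1 high), 0.938 for Ccng1 (12Q replicate 1 high), 0.931 for Preb and 0.923 for Irf7. It was 0.900 for Notch2, 0.893 for Apoc4, 0.889 for Gmppb, 0.882 for Arfgap3 and 0.881 for Ufsp1. It was 0.873 for Apcdd1, 0.868 for Runx1, 0.843 for Zbtb10 and 0.836 for Mylk. The library that stood apart was 12Q replicate 2 for Preb, Irf7, Notch2, Runx1 and Zbtb10, 12Q replicate 1 for Gmppb and Ufsp1, 48Q replicate 1 for Apcdd1 and Mylk, and 48Q replicate 2 for Apoc4 and Arfgap3.

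In 21 genes the effect against WT prostate differed between the tumor genotypes, by the 12Q minus 48Q contrast of the 3-group fit (edgeR adjusted p below 0.05). The log2 difference was 2.95 for Cdh17, 2.64 for Fam25c, 2.54 for Fer1l4, 2.24 for Dlx3, 2.02 for Defa22 and 1.92 for Itpripl1. It was 1.81 for Sp6, 1.67 for Cxcr4 and 1.26 for Tgfb1, so these 9 genes rose in the pooled comparison and were higher in 12Q. The glycolytic genes Aldoa and Ldha differed by 1.89 and 1.81. Higher in 48Q were Pbsn (-9.51), Krt5 (-8.08), Trp63 (-7.80), Svs5 (-6.57), Cd163 (-6.28), Myh11 (-6.17), Svs4 (-3.65), Dst (-2.49), Tmod4 (-1.57) and Prex2 (-1.48), of which only Tmod4 and Prex2 passed in the pooled comparison.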

How the results depend on the processing

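Scaling by DESeq2's size factors and testing without the count filter left the counts of calls within 1.5 times of 302 higher and 179 lower. Library totals gave 1463 and 78, DESeq2's Wald test 1643 and 955, and the 3-group fit 1324 and 1271. The labels' replicate numbers did not pair the samples (correlation of deviations between groups 0.033, 0.143 and -0.101), and a replicate block left 54 higher and 22 lower. Leaving out a library gave 0 to 261 higher and 0 to 88 lower, with both lowest values reached without WT replicate 1 or 2. The 3-group fit gave 1633 and 1368 without 12Q replicate 1, 1069 and 996 without 12Q replicate 2, 526 and 354 without 48Q replicate 1, 428 and 240 without 48Q replicate 2, 415 and 584 without WT replicate 1 and 1002 and 987 without WT replicate 2. DESeq2 gave 930 and 327 without WT replicate 1 and 1585 and 867 without WT replicate 2. These leave-one-out and DESeq2 settings were added after the data were seen, except edgeR's pooled fit and the full DESeq2 test. For 12Q against 48Q, DESeq2 called 2481 genes in place of 627, and leaving out a library 32 to 866. Of 129 named genes that were called, 0 changed direction under any alternative. The reversals were in genes that did not pass. With library totals the log2 fold change became 0.468 for Cdh1, 0.375 for Ccng1, 0.532 for Atp5b, 0.0219 for Dcn, 0.439 for Ufsp1 and 0.158 for Krt5. Leaving out a library in the pooled fit gave -0.634 to 0.553 for Cdh1, -1.60 to 0.370 for Ncam1, -1.39 to 0.653 for Trp53inp1, -0.823 to 0.0415 for Ccng1, -0.250 to 0.125 for Atp5b and -1.21 to 0.256 for Krt5. Without WT replicate 1 the 3-group fit gave 0.526 for Cdh1, 0.636 for Trp53inp1, 0.0844 for Atp5b, -0.528 for Jchain and -0.105 for Hdc, and DESeq2 gave 0.566 for Cdh1, 0.663 for Trp53inp1 and 0.134 for Atp5b. Without WT replicate 2 DESeq2 gave 0.331 for Ncam1, 0.215 for Krt5 and -0.0242 for Itga6. In the 3-group fit Ccng1 was at 0.0815 and Atp5b at 0.0274 without 12Q replicate 2, and Jchain at -0.0566 without 12Q replicate 1. The causes were not tested. At the lowest levels named, a tumor value rests on 3 counts or fewer.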
